A study of Mus musculus with 23 samples.

Results

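CXCR3 and its 3 interferon-induced ligands were followed through bulk RNA sequencing of 23 tumors made from MC38, a mouse colon carcinoma cell line of C57BL/6 origin. The 4 genes, Cxcl9, Cxcl10, Cxcl11 and Cxcr3, were picked by symbol and matched to Ensembl identifiers, and they are 4 of the 26869 genes in the table. Each tumor grew under the skin of a female F1 mouse of 8 to 12 weeks that carried 1 C57BL/6J genome and 1 genome of a Collaborative Cross strain, a recombinant inbred mouse bred from diverse founders. The hosts were C57BL/6J x CC001/UncJ, C57BL/6J x CC002/UncJ and C57BL/6J x CC075/UncJ, which the study's text names responder lines (R: CC001F1, CC002F1, CC075F1), and C57BL/6J x CC036/UncJ, C57BL/6J x CC079/TauUncJ and C57BL/6J x CC080/TauUncJ, which it names non-responder lines (NR: CC036F1, CC079F1, CC080F1). All hosts received 500000 MC38 cells, and at a tumor size of 75 to 110 mm3 a 200 µg intraperitoneal dose of an isotype control antibody (clone 2A3) or of an antibody against PD-1 (aPD1, clone 29F.1A12), with tumors taken 48 h later. There were 2 tumors in each of the 12 groups of line and antibody, except CC080F1 with aPD1, which had 1, so that 6 R isotype, 6 R aPD1, 6 NR isotype and 5 NR aPD1 tumors were compared. The class belongs to the line, so a difference between R and NR rests on 3 lines against 3.

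CXCR3 is a chemokine receptor carried by activated and memory T cells and by natural killer (NK) cells, and it draws these cells along gradients of CXCL9, CXCL10 and CXCL11. Interferons switch the ligand genes on in macrophages, dendritic cells, tumor cells and stroma: CXCL9 answers chiefly to interferon gamma (IFN-gamma), while CXCL10 also answers to type I interferon and to NF-kappaB. The receptor and its ligands are well known for their part in T cell entry into tumors and in the response to PD-1 blockade. C57BL/6 mice are known to carry a frameshift in Cxcl11 and to make no CXCL11 protein, although the gene is still transcribed.

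The ligand genes lie next to each other on the minus strand of chromosome 5 of GRCm38, where GENCODE places Cxcl9 (ENSMUSG00000029417) at 92321347 to 92328079, Cxcl10 (ENSMUSG00000034855) at 92346638 to 92348889 and Cxcl11 (ENSMUSG00000060183) at 92359544 to 92365485. The 3 genes span 44139 bases, with gaps of 18558 bases between Cxcl9 and Cxcl10 and of 10654 bases between Cxcl10 and Cxcl11. Cxcr3 (ENSMUSG00000050232) lies on the minus strand of the X chromosome at 101731535 to 101734269. GENCODE annotates Cxcl11 as a polymorphic pseudogene and the other 3 genes as protein coding. Exons of Cxcl11 share 1582 of 3794 bases with Gm2673, a processed pseudogene on the opposite strand that has no row in the table. Exons of Cxcl10 share 133 of 2252 bases with Art3 on the opposite strand, whose highest count in any tumor was 252, against a lowest Cxcl10 count of 1531. The counting is not stated to use strand, so reads from these shared bases cannot be told apart.

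The upstream windows of Cxcl9 and Cxcl10 are shown because these neighbours differed in how they separated the classes. Whether the letters of the windows bear on that difference was not tested. Each run holds the 250 bases before the RefSeq start of the gene (GRCm38.p6, minus strand, written 5′ to 3′; chr5:92328080-92328329 for Cxcl9 and chr5:92348890-92349139 for Cxcl10). Capitals mark matches to 3 motifs searched on both strands: the interferon-stimulated response element (ISRE, searched as GAAA, any 2 bases and GAAA again), the gamma-activated site (GAS, TTCNNNGAA) and the kappaB motif. The kappaB motif was searched as GGG, a purine, any 2 bases, 2 pyrimidines and CC.
Cxcl9: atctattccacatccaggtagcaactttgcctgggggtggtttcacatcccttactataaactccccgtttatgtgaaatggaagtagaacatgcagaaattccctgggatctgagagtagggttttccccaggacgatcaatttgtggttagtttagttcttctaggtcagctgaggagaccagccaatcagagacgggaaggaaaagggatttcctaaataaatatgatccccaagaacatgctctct
Cxcl10: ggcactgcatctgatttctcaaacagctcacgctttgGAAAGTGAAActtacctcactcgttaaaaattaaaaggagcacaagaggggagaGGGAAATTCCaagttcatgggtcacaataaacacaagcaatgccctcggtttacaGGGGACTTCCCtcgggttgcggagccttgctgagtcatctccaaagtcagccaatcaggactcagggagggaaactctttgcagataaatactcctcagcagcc

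The Cxcl10 window held 1 ISRE match, GAAAGTGAAA, at positions -213 to -204 from the start. It also held kappaB matches at -159 to -150 (GGGAAATTCC) and, overlapping each other, at -104 to -95 and -103 to -94. The Cxcl9 window held no match to these letters. Looser forms of the motifs were not searched, so this does not show that the window lacks such sites. Among 32851 windows of the same length upstream of all RefSeq starts, 2.98% held the ISRE, 7.02% the GAS and 7.25% the kappaB motif. A match describes the letters and not binding, and Cxcl11 is named only.

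Expected counts per library totalled 14494014 to 71868253 (median 42327589). They fell into 17 deep libraries, of at least 37242363 counts, and 6 shallow ones, of at most 18354585 counts, of which 2 were R and 4 NR. Counts of Glycam1, a gene of lymph node vessels, were present in 3 tumors (CC002F1 isotype replicate 1, CC079F1 aPD1 replicate 1 and CC080F1 aPD1 replicate 1) and at 0 in the other 20. The carcinoma markers Krt8, Krt18, Epcam and Shisal2b together reached 26.6 to 64.0 TPM (a level scaled for depth and exonic length) in every tumor. T and NK cell markers reached 28.1 to 228.8 TPM and macrophage markers 2438 to 8161 TPM, so each library held host immune RNA beside tumor RNA.

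Per length, Cxcl9 and Cxcl10 were the abundant members and Cxcl11 and Cxcr3 the rare ones. Over the 23 tumors, TPM, the level per length computed here from the counts and exonic lengths, averaged 199 ± 144 (SD) for Cxcl9, 201 ± 73.9 for Cxcl10, 2.97 ± 3.05 for Cxcl11 and 1.77 ± 1.29 for Cxcr3. Between the lowest and the highest tumor Cxcl9 went from 24.3 to 556 TPM, Cxcl10 from 106 to 398, Cxcl11 from 0.163 to 12.97 and Cxcr3 from 0.236 to 6.28, so that as a fold the spread was widest for Cxcl11 and narrowest for Cxcl10. All values below are DESeq2 normalized counts, scaled for depth and not for length, unless TPM is written.

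Cxcl9 was higher in tumors of R hosts than of NR hosts. In R isotype tumors it ran from 6271 to 11412 normalized counts with a median of 7289.7, and in R aPD1 tumors from 8028 to 21548 with a median of 15196. NR isotype tumors ran from 986 to 7018 with a median of 2466. The 5 NR aPD1 tumors had 9177 and 3222 in CC036F1, 2209 and 4242 in CC079F1 and 2200.4 in CC080F1. The classes overlapped: 9 of 11 NR tumors lay below every R tumor, but only 6 of 12 R tumors lay above every NR tumor (3 of 6 with isotype and 5 of 6 with aPD1). The NR tumors within the R range were CC080F1 isotype replicate 1 (7018) and CC036F1 aPD1 replicate 1 (9177). Over both antibodies the R line means began at 10777, the mean of CC002F1, and the NR line means ended at 4849, the mean of CC036F1.

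**Figure D1:**
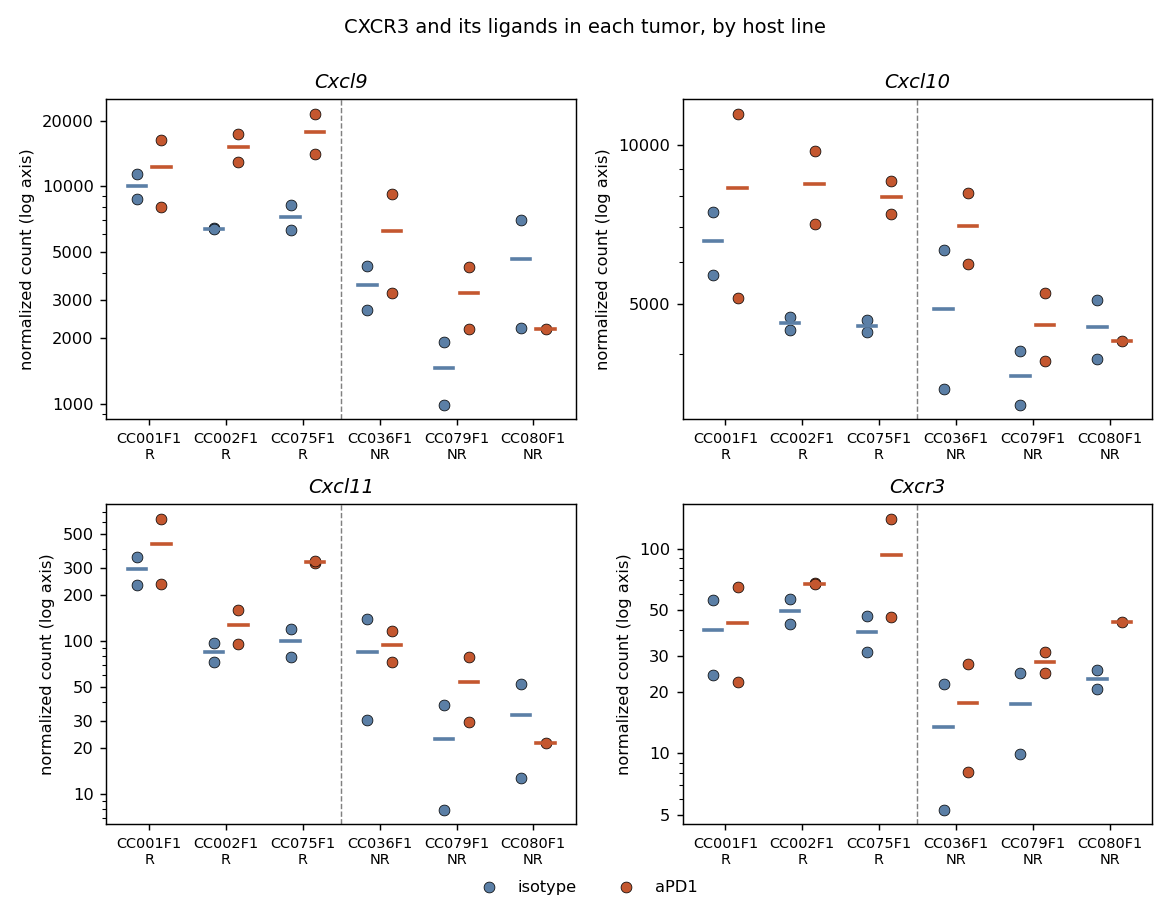
Normalized counts (log axis) of Cxcl9, Cxcl10, Cxcl11 and Cxcr3 in each of the 23 tumors by host line, with blue points for isotype, orange points for aPD1 and bars for the mean of 1 or 2 tumors. The R lines stand left of the dashed line and the NR lines right of it; Cxcl9 had 9 of 11 NR tumors below every R tumor, while Cxcl10 had 6 of 11.

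With antibody as a term, Cxcl9 was 2.94-fold higher in R tumors (log2 difference 1.56 ± 0.29 SE, DESeq2 adjusted p = 8.88e-06). Of the 17643 genes tested in this comparison 14.4% were called at an adjusted p under 0.05, and 7.66% were called and higher in R, beside 3 of the 4 members called and higher. Within aPD1 tumors the Cxcl9 difference was 1.83 ± 0.45 (adjusted p = 0.00154), where 7.93% of all tested genes were called and 5.94% called and higher in R. Within isotype tumors it was 1.303 ± 0.43 (adjusted p = 0.0441), where 5.53% were called and 2.29% called and higher in R. The call over all tumors and the call in aPD1 tumors held under every alternative run and without each line or tumor in turn. The isotype call was lost in edgeR (adjusted p = 0.0958), in the deep libraries alone (1.01, adjusted p = 0.554), and in 9 of 12 fits without 1 tumor: it held only without CC075F1 isotype replicate 2, CC036F1 isotype replicate 1 or CC080F1 isotype replicate 1 (range of adjusted p over the 12 fits 5.69e-05 to 0.117).

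Cxcl10, the neighbour of Cxcl9, differed much less between the classes. R isotype tumors had 4416 to 7456 normalized counts with a median of 4685, and R aPD1 tumors had 5133 to 11477 with a median of 7962. NR isotype tumors had 3207 to 6325 with a median of 3991. The NR aPD1 tumors had 8125 and 5945 in CC036F1, 3888 and 5233 in CC079F1 and 4237 in CC080F1. The ranges of R and NR overlapped with either antibody, and the isotype line mean of CC036F1 (4879) exceeded those of the R lines CC002F1 (4582) and CC075F1 (4539). The difference was 1.34-fold over all tumors (log2 0.42 ± 0.17, 95% interval 0.089 to 0.75, adjusted p = 0.0755), 0.27 ± 0.21 in isotype tumors (adjusted p = 0.502) and 0.58 ± 0.25 in aPD1 tumors (adjusted p = 0.149). None of these passed, but single tumors decided that: the difference over all tumors passed without CC036F1 isotype replicate 2 (0.50, adjusted p = 0.0182), without CC036F1 aPD1 replicate 1 (0.49, adjusted p = 0.0190), without CC001F1 aPD1 replicate 1 (0.46, adjusted p = 0.0229) and without CC080F1 isotype replicate 1 (0.45, adjusted p = 0.0384). In aPD1 tumors it passed without CC036F1 aPD1 replicate 1 (0.77, adjusted p = 0.00220) and without CC001F1 aPD1 replicate 1 (0.69, adjusted p = 0.00494).

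Cxcl11 showed the largest fold between classes among the 4 genes, at a much lower level. It ran from 73.3 to 356 normalized counts in R isotype tumors (median 109.6), from 96.5 to 630 in R aPD1 tumors (median 280.4) and from 7.93 to 140 in NR isotype tumors (median 34.3). In the NR aPD1 tumors it was 116.6 and 73.2 in CC036F1, 29.7 and 78.4 in CC079F1 and 21.5 in CC080F1. Of the 11 NR tumors 8 lay below every R tumor, and the other 3, at 116.6, 140 and 78.4, lay within the R range. The lowest values rest on few reads: CC079F1 isotype replicate 2 and CC080F1 isotype replicate 2, both shallow libraries, had 4 and 5 reads. Cxcl11 was 3.91-fold higher in R tumors over both antibodies (1.97 ± 0.43, adjusted p = 0.000170) and 4.64-fold higher in aPD1 tumors (2.21 ± 0.55, adjusted p = 0.00219). In isotype tumors the difference was 1.74 ± 0.66 and did not pass (adjusted p = 0.0909), but it did without CC036F1 isotype replicate 2 (2.45, adjusted p = 0.00347). The call in aPD1 tumors was lost when limma took the line as a random effect (2.01, adjusted p = 0.182).

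Cxcr3, the receptor, was scarce, with 5 to 148 reads per tumor, and was higher in R tumors. R isotype tumors had 24.2 to 56.5 normalized counts (median 44.8), and R aPD1 tumors had 22.2 to 139.8 (median 65.8). NR isotype tumors had 5.30 to 25.6 (median 21.2). The NR aPD1 tumors had 8.11 and 27.2 in CC036F1, 24.6 and 31.4 in CC079F1 and 44.0 in CC080F1. The classes overlapped: 5 of 11 NR tumors lay below every R tumor (4 of 6 with isotype and 1 of 5 with aPD1, each against the R tumors of that antibody), and 8 of 12 R tumors lay above every NR tumor. The 2 lowest R values, 22.2 and 24.2, both came from CC001F1. The receptor was 2.47-fold higher in R tumors (1.304 ± 0.30, adjusted p = 0.000422), a call that held under every alternative run and without each line or tumor. Within isotype tumors the difference was 1.26 ± 0.39 (adjusted p = 0.0322) and within aPD1 tumors 1.34 ± 0.46 (adjusted p = 0.0443). Both of these calls were lost in edgeR (adjusted p = 0.154 and 0.172) and in the deep libraries alone (adjusted p = 0.313 and 0.0671). The isotype call was lost in 6 of 12 fits without 1 tumor, those without CC001F1 replicate 2, CC002F1 replicate 1 or 2, CC075F1 replicate 1, CC036F1 replicate 2 or CC079F1 replicate 2 (largest adjusted p 0.110). The aPD1 call was lost in 8 of 11 and held only without CC001F1 replicate 1, CC075F1 replicate 2 or CC080F1 replicate 1 (largest adjusted p 0.194). With the replicate number as a block the aPD1 value was 1.34 and the adjusted p 0.0627.

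**Figure D2:**
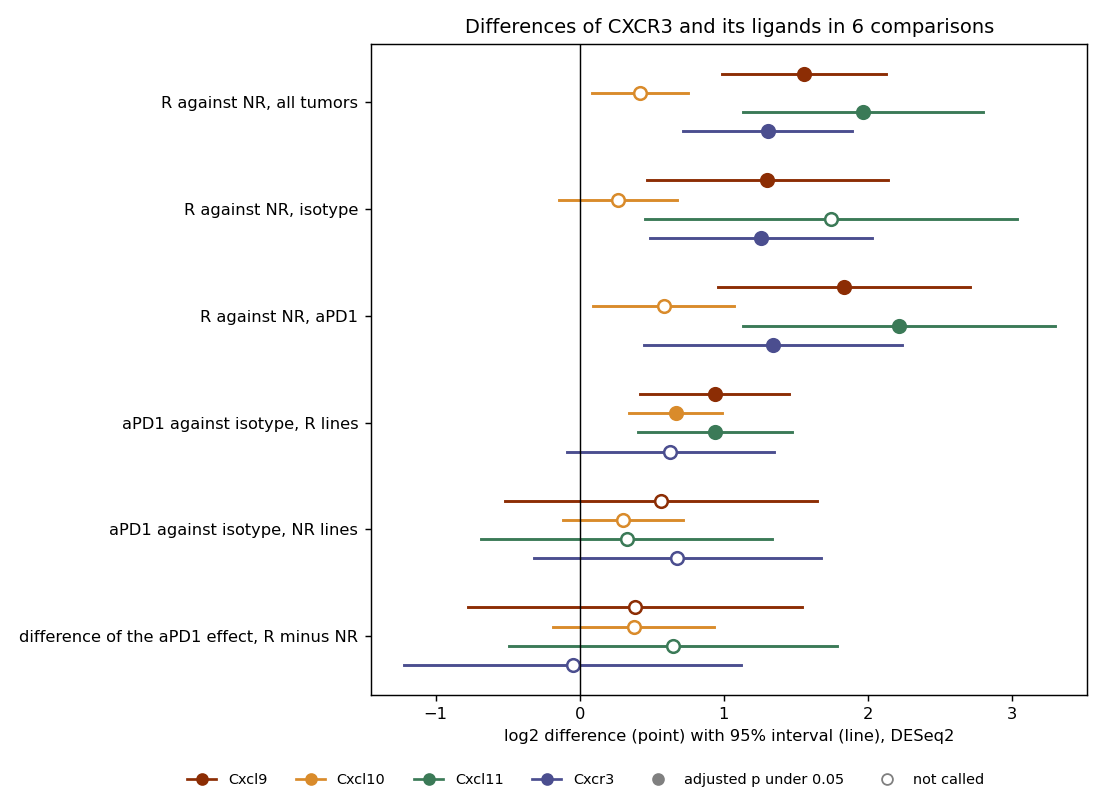
Log2 differences (points) with 95% intervals (lines) of the 4 genes in 6 DESeq2 comparisons, filled where the adjusted p was under 0.05. Between the classes Cxcl9, Cxcl11 and Cxcr3 lay between 1.26 and 2.21 and Cxcl10 between 0.27 and 0.58; with aPD1 in R lines the ligands lay between 0.67 and 0.94.

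The next comparison asked what aPD1 changed within 48 h. In the R lines all 3 ligands rose in a fit that held the line fixed: Cxcl10 1.59-fold (0.67 ± 0.16, adjusted p = 0.00389), Cxcl9 1.91-fold (0.94 ± 0.26, adjusted p = 0.0130) and Cxcl11 1.92-fold (0.94 ± 0.27, adjusted p = 0.0167). Of the 15701 genes tested 5.26% were called, and 4.85% were called and higher with aPD1. Cxcr3 had 0.63 ± 0.37 (95% interval -0.087 to 1.35, adjusted p = 0.410), which did not pass and does not show that the receptor stayed level.

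The rise was not even among the R lines. In CC002F1, Cxcl9 went from 6419 and 6334 to 17380.4 and 12973, and Cxcl10 from 4456 and 4709 to 9769 and 7076. In CC075F1, Cxcl9 went from 8161 and 6271 to 21548 and 14005, and Cxcl10 from 4661 and 4416 to 8535 and 7389. The tumors of these lines did not overlap between antibodies for either ligand, with folds of line means of 2.38 and 2.46 for Cxcl9 and 1.84 and 1.75 for Cxcl10. With 2 tumors against 2 a separation is common by chance, and its share over all genes was not computed. Cxcl9 was also separated in the NR lines CC079F1, upward, and CC080F1, downward with 1 aPD1 tumor. In CC001F1 the aPD1 tumors lay on both sides of the isotype tumors, with Cxcl9 at 8028 and 16387 against 8725 and 11412, a fold of 1.21, and Cxcl10 at 5133 and 11477 against 5668 and 7456, a fold of 1.27. Cxcl11 was separated in CC075F1 alone among the R lines, where 121 and 79.1 became 324 and 336 (fold 3.30), against folds of 1.47 in CC001F1 and 1.49 in CC002F1. Cxcr3 had folds of 1.09 in CC001F1, 1.35 in CC002F1 and 2.39 in CC075F1, the last set by replicate 1 at 139.8 beside replicate 2 at 46.2.

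**Figure D3:**
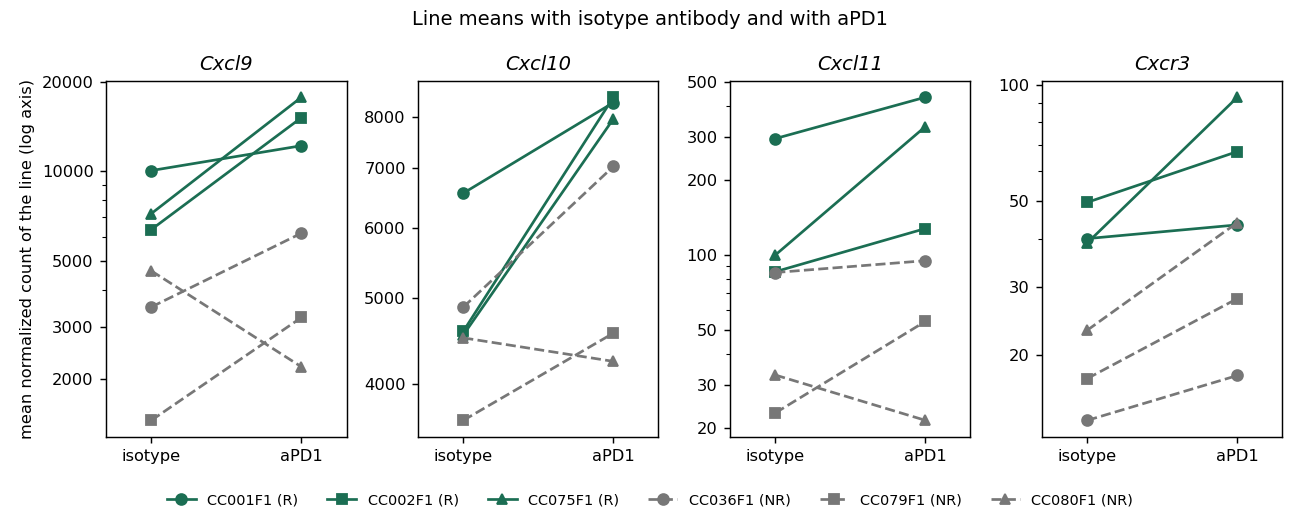
Mean normalized count (log axis) of each host line with isotype antibody and with aPD1, solid green for R and dashed grey for NR lines. The ligands were higher with aPD1 in all 3 R lines, by 1.21- to 3.30-fold, and the 1 aPD1 tumor of CC080F1 lay below the isotype mean of its line for the ligands and above it for Cxcr3.

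These calls depended on the tool and on single tumors. edgeR called none of the 4 genes in R lines, with adjusted p of 0.0697 for Cxcl9, 0.0770 for Cxcl10 and 0.134 for Cxcl11, and 0 of all genes there. At an unadjusted p under 0.05 edgeR had 2621 genes and DESeq2 2722. The Cxcl10 call was lost only without CC075F1 aPD1 replicate 1 (0.63, adjusted p = 0.0831). The Cxcl9 call was lost without CC001F1 isotype replicate 1, CC001F1 aPD1 replicate 2, either isotype tumor of CC002F1, CC002F1 aPD1 replicate 1 or CC075F1 isotype replicate 1, with adjusted p of 0.0549 to 0.102. The Cxcl11 call was lost without CC001F1 isotype replicate 1, CC001F1 aPD1 replicate 2, CC002F1 aPD1 replicate 1, either isotype tumor of CC075F1 or CC075F1 aPD1 replicate 1, with adjusted p of 0.0547 to 0.127.

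In NR lines none of the 4 genes passed, and the 95% intervals were wide. The log2 change was 0.56 (-0.52 to 1.64) for Cxcl9, 0.30 (-0.11 to 0.72) for Cxcl10, 0.33 (-0.69 to 1.34) for Cxcl11 and 0.68 (-0.32 to 1.67) for Cxcr3, each with an adjusted p of 0.99971 in DESeq2 and with 0 of the 4 at an unadjusted p under 0.05. Without 1 tumor at a time these values ran from 0.205 to 0.988 for Cxcl9, 0.16 to 0.43 for Cxcl10, -0.026 to 0.81 for Cxcl11 and 0.43 to 0.997 for Cxcr3, and none passed. Of the 24552 genes tested 0.0448% were called, and 0.0407% called and higher with aPD1. In CC079F1 the aPD1 tumors had more Cxcl9 than the isotype tumors (2209 and 4242 against 986 and 1921, fold 2.22), and in CC036F1 the ranges overlapped (9177 and 3222 against 4305 and 2693, fold 1.77). The CC080F1 aPD1 tumor, which has no replicate and carried Glycam1 counts, had 2200.4 against 7018 and 2238. It also held 355.7 TPM of B cell and lymph node markers, against 0.810 to 84.0 TPM in the other 22 tumors, and the part of that RNA in its values was not tested.

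Whether aPD1 acted differently in the classes was tested as an interaction, and no member passed. The log2 change in R minus that in NR was 0.39 ± 0.59 for Cxcl9, 0.37 ± 0.28 for Cxcl10, 0.65 ± 0.58 for Cxcl11 and -0.05 ± 0.60 for Cxcr3, with adjusted p of 0.9745 to 0.999953. Of all 26342 genes 0.0342% were called, and none in edgeR (0 genes). At an unadjusted p under 0.05 edgeR had 1932 genes and DESeq2 1751. An exact two-sided permutation of the class over the 6 per-line changes gave p = 0.5, 0.3, 0.6 and 0.7, where the smallest p possible was 0.1. The rise of the ligands in R lines is therefore not shown to differ from the change in NR lines.

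The balance between Cxcl9 and Cxcl10 within a tumor leaned further to Cxcl9 in R than in NR tumors, with an overlap among isotype tumors. In every R tumor Cxcl9 counts exceeded Cxcl10 counts, with ratios of 1.35 to 1.75 with isotype (median 1.49) and 1.43 to 2.52 with aPD1 (median 1.81). NR isotype tumors had ratios of 0.308 to 1.38 (median 0.522). The NR aPD1 tumors had 0.519 to 1.13 (median 0.568, n = 5). Of the NR tumors only CC036F1 isotype replicate 1, CC080F1 isotype replicate 1 and CC036F1 aPD1 replicate 1 had ratios above 1. The mean log2 ratio was higher in R than in NR tumors by 1.26 with isotype (exact two-sided permutation p = 0.00433, adjusted p = 0.0260 over 12 ratio tests) and by 1.41 with aPD1 (p = 0.00216, the smallest possible, adjusted p = 0.0260). Taken over the 6 line means, the same differences came to 1.26 and 1.47, each with an exact permutation p of 0.1, the smallest that 3 lines against 3 allow. The isotype difference also lost its adjusted p under 0.05 without any 1 of the 6 R isotype tumors (0.0519 to 0.0779), in the deep libraries (1.401, adjusted p = 0.143) and without the Glycam1 tumors (1.27, adjusted p = 0.0779), and the aPD1 difference in the last pair of settings (1.46, adjusted p = 0.0952, and 1.19, adjusted p = 0.0779). In that pair every R aPD1 tumor still lay above every NR aPD1 tumor. Fewer tumors raised the smallest p possible there, so the loss of the call alone does not show a weaker difference. Without the Glycam1 tumors the aPD1 difference itself was smaller, at 1.19 against 1.41.

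**Figure D4:**
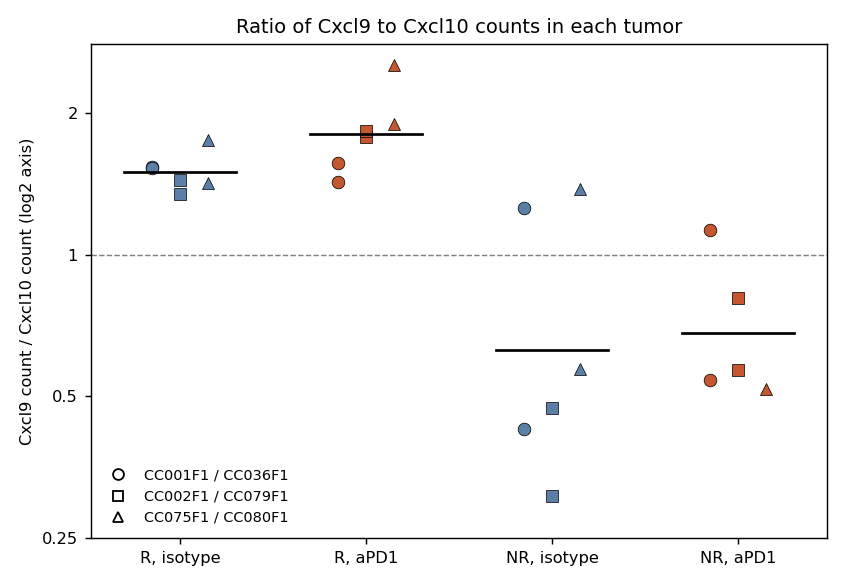
Ratio of Cxcl9 to Cxcl10 counts (log2 axis) in each tumor by class and antibody, with 1 symbol per line of a class and bars at the mean of the log2 ratios. All 12 R tumors lie above a ratio of 1, between 1.35 and 2.52, and 8 of 11 NR tumors lie below it.

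No change of the ratio with aPD1 passed. In R lines the change was 0.27 on the log2 scale (exact permutation within lines, p = 0.0370, adjusted p = 0.0889), made of 0.38 in CC002F1, 0.47 in CC075F1 and -0.04 in CC001F1. In NR lines it was 0.05 (exact permutation p = 0.907, adjusted p = 0.926), with 0.83 in CC079F1, 0.10 in CC036F1 and -0.77 in CC080F1. In TPM, the 3 ligands summed to 387.6 ± 89.0 (SD) in R isotype, 672.9 ± 193 in R aPD1, 234 ± 88.1 in NR isotype and 299 ± 129 in NR aPD1 tumors. Cxcl9 made up 52.4% ± 2.20 of that sum in R isotype tumors and 56.9% ± 4.81 in R aPD1 tumors, against 32.9% ± 13.3 in NR isotype and 33.9% ± 7.58 in NR aPD1 tumors. Cxcl11 made up at most 1.55% in any tumor.

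Among the R lines, Cxcl11 was the 1 member whose level passed the test for a difference between lines. Over both antibodies its mean was 364 ± 186 normalized counts (SD, n = 4) in CC001F1, 215 ± 134 in CC075F1 and 106.8 ± 36.9 in CC002F1, and lines differed with a log2 range of 1.78 (DESeq2 likelihood ratio test with antibody as a term, adjusted p = 0.000159), where 1.05% of 19074 genes were called. CC001F1 had the highest mean with either antibody, and its isotype tumors (234 and 356) lay above all other isotype tumors. With aPD1 its tumors (236.8 and 630) lay on both sides of those of CC075F1 (324 and 336). In edgeR this call was lost (1.76, adjusted p = 0.0743), and Cxcl10 passed without CC001F1 aPD1 replicate 1 (0.53, adjusted p = 0.00143). The log2 ranges among R lines of 0.21 for Cxcl9, 0.30 for Cxcl10 and 0.61 for Cxcr3 did not pass. Among NR lines no member passed (Cxcl9 1.08, Cxcl10 0.53, Cxcl11 1.501 and Cxcr3 1.07, adjusted p of 0.163 to 0.603), where 9.46% of 16936 genes were called. In the deep libraries alone the NR lines differed in Cxcl10 (0.93, adjusted p = 1.32e-05) and in Cxcl11 (1.80, adjusted p = 0.000459). Both also passed without CC036F1 isotype replicate 1 (0.71, adjusted p = 0.000108, and 1.83, adjusted p = 0.0455), and Cxcl11 without CC080F1 isotype replicate 1 (2.46, adjusted p = 0.0249).

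When the line means were put in order, the tumors of most neighbouring lines overlapped. With so few tumors per line, an overlap does not show that neighbours differed little. For Cxcl9 with aPD1, the tumors of CC001F1 and CC036F1 overlapped at means of 12207 and 6199. For Cxcl9 with isotype, CC001F1 (10069) came first and apart from CC075F1 (7216), followed by CC002F1 (6376), CC080F1 (4628) and CC036F1 (3499), with CC079F1 (1454) last and apart. The other neighbours had overlapping tumors. For Cxcl9 with aPD1 the order was CC075F1 (17776), CC002F1 (15177), CC001F1 (12207), CC036F1 (6199), CC079F1 (3226) and CC080F1 (2200.4). Only the last step was free of overlap, with the lower CC079F1 tumor at 2209 beside the unreplicated CC080F1 tumor at 2200.4. For Cxcr3 with isotype the 3 R lines came first at 49.7 in CC002F1, 40.0 in CC001F1 and 39.0 in CC075F1, followed by CC080F1 at 23.2, CC079F1 at 17.4 and CC036F1 at 13.5. Of these steps only that from CC075F1 to CC080F1 was free of overlap, and the lower CC001F1 tumor (24.2) lay within the range of CC080F1 and below the higher CC079F1 tumor (24.8). For Cxcl10 none of the 5 steps with isotype was free of overlap.

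Of the genes upstream of the ligands, IFN-gamma itself differed most. Ifng, made by T and NK cells, ran from 29.5 to 94.4 normalized counts in R isotype tumors (median 47.9), 50.01 to 289 in R aPD1 tumors (median 147) and 14.5 to 43.0 in NR isotype tumors (median 21.9), with 8.47 to 51.2 in the 5 NR aPD1 tumors. It was higher in R over all tumors by 1.89 ± 0.33 (adjusted p = 1.75e-06) and rose with aPD1 in R lines by 1.4999 ± 0.37 (adjusted p = 0.00365). Over all tumors 7.66% of all genes tested were called and higher in R. Of the 14 genes of interferon ligands, receptors and signalling, 5 were higher in R over all tumors and 0 lower, with a median log2 difference of 0.17 against -0.00042 over all genes tested. Among the others were Socs1, a feedback inhibitor of interferon signalling (0.36 ± 0.13, adjusted p = 0.0385), Irf1 (0.31 ± 0.08, adjusted p = 0.00318) and the kinase gene Tyk2 (0.29 ± 0.09, adjusted p = 0.00997). The 4 interferon receptor genes did not pass, Ifngr1 among them (0.04 ± 0.08). With aPD1 in R lines 6 of 14 rose, among them Ifng, Stat2 (0.72 ± 0.16), Socs1 (0.51 ± 0.16), Irf9 (0.44 ± 0.12) and Irf1 (0.35 ± 0.10), with a list median of 0.31. There 4.85% of all genes tested were called and higher with aPD1. In NR lines 0 of 14 passed, in DESeq2 and in edgeR, with 0 and 1 at an unadjusted p under 0.05. DESeq2 called only 0.0448% of all genes there, so this count does not set the list apart.

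Other genes that interferon induces went with the ligands. Over all tumors 11 of 14 such genes were higher in R and 0 lower (list median 0.63), beside 7.66% higher among all genes tested. Among them Ciita, the switch for MHC class II genes, had 1.52 ± 0.28, and the GTPase genes Gbp5 and Iigp1 had 1.03 ± 0.20 and 0.98 ± 0.26. The 3 that did not pass were Ido1 (1.14 ± 0.43, adjusted p = 0.0547), Cd274, which encodes PD-L1 (0.57 ± 0.21, adjusted p = 0.0552), and Nos2 (-0.28 ± 0.31). In the deep libraries alone 4 of 14 passed, where 1668 of all 16961 genes tested were called. With aPD1 in R lines 13 of 14 rose, where 4.85% of all genes tested were called and higher. The list median was 0.86 against -0.012 over all genes. Ido1 rose by 1.12 ± 0.17 (DESeq2 adjusted p = 1.93e-07), Nos2 by 1.05 ± 0.30 (adjusted p = 0.0167) and Cd274 by 1.02 ± 0.24 (adjusted p = 0.00306). Psmb8 had 0.17 ± 0.06 (adjusted p = 0.0838). In NR lines 0 of 14 passed in DESeq2 and in edgeR, with 2 and 5 at an unadjusted p under 0.05. Of all genes tested there DESeq2 called only 0.0448%. The list counts in R lines with aPD1 were all 0 in edgeR, with 14 of these 14 genes at an unadjusted p under 0.05.

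**Figure D5:**
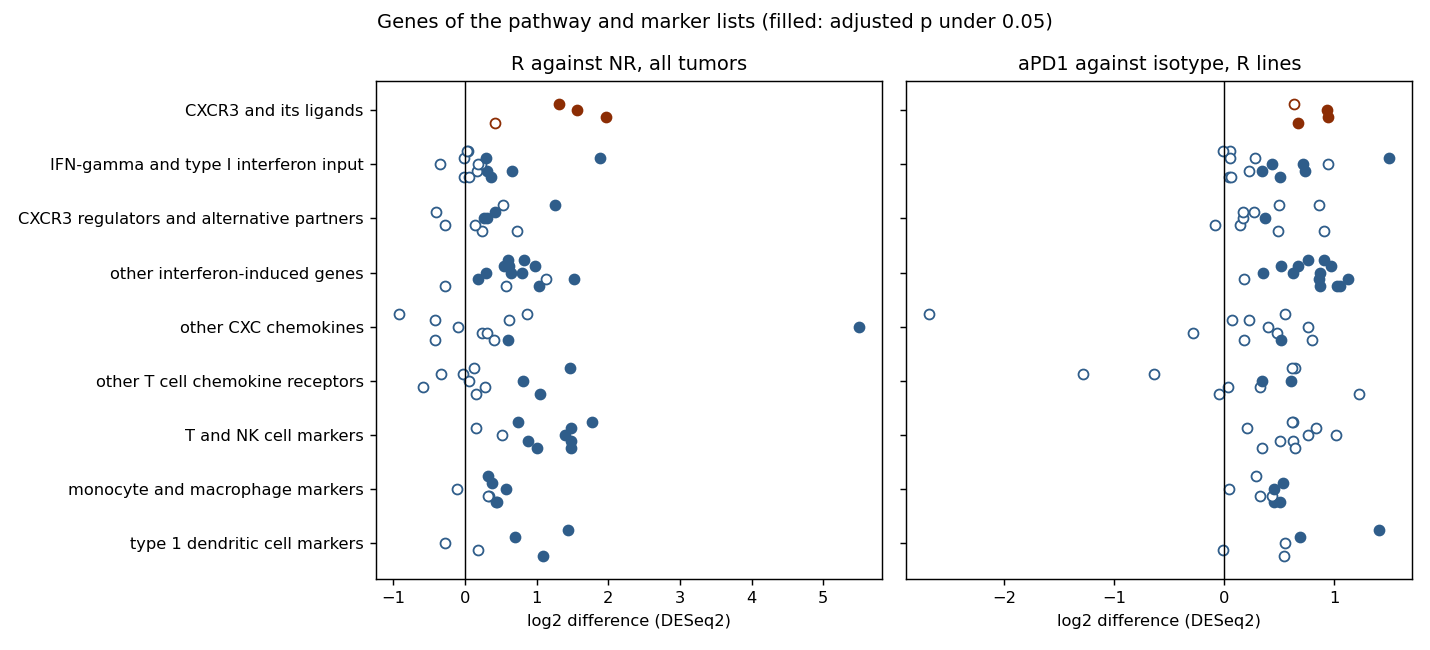
Log2 differences of single genes, filled where the DESeq2 adjusted p was under 0.05, for R against NR over all tumors (left) and for aPD1 against isotype in R lines (right), with CXCR3 and its ligands on top. Interferon-induced genes were called in 11 of 14 (left) and 13 of 14 (right), and T and NK cell markers in 8 of 10 (left) and 0 of 10 (right). Of all genes tested 7.66% (left) and 4.85% (right) were called and higher. On the right edgeR called 0 genes, and the counts there do not show that 1 list rose more than another.

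Around the receptor, Tbx21, which encodes T-bet, the transcription factor that turns on Cxcr3 in T cells, was higher in R by 1.25 ± 0.24 (adjusted p = 1.26e-05). In this comparison 7.66% of all genes tested were called and higher in R. Of 10 genes that regulate CXCR3 or share its ligands, 4 were higher in R and 0 lower, with a list median of 0.28: Tbx21, the arrestin genes Arrb2 (0.42, adjusted p = 9.11e-05) and Arrb1 (0.31, adjusted p = 0.000567), and Grk2 (0.26, adjusted p = 3.81e-05), whose kinase shuts off ligand-bound receptors. Dpp4, whose protease trims the ligands, had 0.53 ± 0.29 (adjusted p = 0.232). Ackr3, a scavenger that takes up CXCL11, had -0.29 ± 0.12 (adjusted p = 0.0769). Of these 10 genes 1 passed with aPD1 in R lines, Arrb1 (0.37, adjusted p = 0.0132), beside 5.26% of all genes tested. Tbx21 had 0.86 ± 0.30 there (adjusted p = 0.0615).

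Among 10 other chemokine receptors of T cells 3 were higher in R and 0 lower, with a list median of 0.13, where 7.66% of all genes tested were called and higher. Among them were Cxcr6 (1.47 ± 0.34, adjusted p = 0.000411) and Ccr8, a receptor of regulatory T cells (1.05 ± 0.34, adjusted p = 0.0217). In R lines given aPD1, 2 of the 10 rose, with a list median of 0.33, where 4.85% of all genes were called and higher, and 1 of them was Cxcr4 (0.34, adjusted p = 0.00401). Of 11 other CXC chemokines 2 were higher in R and 0 lower, with a list median of 0.31 beside the same 7.66%, the B cell attractant Cxcl13 (5.51 ± 0.70) and the CXCR6 ligand Cxcl16 (0.59 ± 0.13, adjusted p = 0.000137), and Cxcl16 also rose with aPD1 in R lines (0.51 ± 0.13, adjusted p = 0.00499). The Cxcl13 value is a class average, and it does not show that the R lines shared it evenly.

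Markers of the cells that carry the receptor or make the ligands moved with the class. Over all tumors 7.66% of all genes tested were called and higher in R. Of 10 T and NK cell markers 8 were higher in R over all tumors, with a list median of 1.2001, among them Cd8a (1.78 ± 0.39, adjusted p = 0.000180), Nkg7 (1.48 ± 0.28, adjusted p = 1.23e-05) and Cd3e (1.47 ± 0.40, adjusted p = 0.00440). Their summed TPM ran from 50.4 to 102.4 in R isotype, 51.8 to 228.8 in R aPD1, 28.1 to 90.7 in NR isotype and 29.1 to 67.6 in NR aPD1 tumors. In bulk tissue fewer cells of a type and less RNA per cell cannot be told apart. With aPD1 in R lines 0 of 10 passed in DESeq2 or edgeR, with 6 and 5 at an unadjusted p under 0.05. The list median was 0.62, beside 0.63 for Cxcr3 and 0.67 for Cxcl10. The ligands passed there in DESeq2 and not in edgeR, and their calls do not show that they rose more than the T cell markers or Cxcr3. Macrophage markers were higher in R for 5 of 8 genes (list median 0.35; C1qa 0.57 ± 0.11), and type 1 dendritic cell markers for 3 of 5, Xcr1 (1.44 ± 0.40), Batf3 (1.08 ± 0.30) and Irf8 (0.70 ± 0.14). Of B cell and lymph node markers 0 of 5, of skeletal muscle markers 0 of 5 and of carcinoma markers 0 of 4 passed over all tumors, while 1 of 4 endothelial markers was higher in R and 1 of 4 fibroblast markers lower. Among aPD1 tumors alone 5 of 5 B cell and lymph node markers were lower and 4 of 5 muscle markers higher in R, where 7.93% of all tested genes were called. Single tumors stood far out in these sums. B cell and lymph node markers ran from 10.5 to 355.7 TPM in NR aPD1 tumors, the highest in CC080F1, and from 4.25 to 20.3 in R. Muscle markers ran from 0.610 to 474.8 TPM in R aPD1 tumors, the highest in CC001F1 replicate 1, and from 0.406 to 10.4 in NR. With the ligands, 4 of 8 macrophage and 2 of 5 type 1 dendritic cell markers rose with aPD1 in R lines. There 4.85% of all genes tested were called and higher. The part of these cell types in the results on the ligands and the receptor was not tested.

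Ratios within a tumor set the members against such markers. Cxcl9 per count of Adgre1, the macrophage gene for F4/80, was 1.22 to 2.60 in R isotype tumors (median 1.59), 1.79 to 2.98 in R aPD1 tumors (median 2.39), 0.234 to 1.56 in NR isotype tumors (median 0.734) and 0.496 to 2.31 in NR aPD1 tumors (median 1.08, n = 5). The mean log2 ratio was higher in R by 1.34 with isotype (exact permutation p = 0.00866, adjusted p = 0.0260) and by 1.32 with aPD1 (exact permutation p = 0.00649, adjusted p = 0.0260), with class permuted over tumors although it belongs to the line. Over the 6 line means the differences were 1.34 and 1.48, each with an exact permutation p of 0.1, the smallest possible. Neither difference passed without the Glycam1 tumors (1.36 and 0.75, adjusted p = 0.0779 and 0.0889) and in the deep libraries (adjusted p = 0.148 and 0.143). Cxcr3 per count of Cd3e did not differ detectably: the log2 difference of R and NR was -0.79 with isotype (exact permutation p = 0.366, adjusted p = 0.627) and -0.32 with aPD1 (exact permutation p = 0.528, adjusted p = 0.711). NR isotype tumors spread from 0.101 to 2.5 in that ratio, and Cd3e was as low as 3.96 normalized counts there.

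The genes whose pattern over the 23 tumors was most like each member give a description of its company. Likeness was Pearson's r of log2(normalized count + 1) among 13124 genes with a mean of at least 50, and the tumors share host lines, antibody and depth. For Cxcl9 these were Serpina3g (r = 0.95), Slamf8 (0.94), Tgtp2 (0.94), Serpina3f (0.93) and AW112010 (0.93). After the mean of each line and antibody group was taken off, the same genes had r of 0.81 to 0.87. For Cxcl10 the first 4 were the GTPase genes Igtp, Irgm2 and Irgm1 and then Cd274, with r of 0.93 to 0.94, and of 0.91 to 0.93 within groups. For Cxcl11 they were Gm4841, Bst1, Tgtp1, Batf2 and Tap1, with r of 0.88 to 0.91, and of 0.66 to 0.76 within groups. For Cxcr3 they were Bin2, Sept1, Man2b2, Sirpa and Pde4b, with r of 0.86 to 0.87, and of 0.73 to 0.83 within groups.

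Among the members, Cxcl9 went with Cxcl10 (r = 0.80, n = 23 tumors) and with Cxcl11 (r = 0.80), and Cxcl10 with Cxcl11 (r = 0.78), while Cxcr3 had r of 0.56 with Cxcl9, 0.40 with Cxcl11 and 0.34 with Cxcl10. Within groups of line and antibody these became 0.58, 0.32 and 0.66 among the ligands and 0.02, -0.02 and -0.04 with Cxcr3. Within a class Cxcr3 had r of 0.67 with Cxcl9, 0.15 with Cxcl11 and 0.58 with Cxcl10 over the 12 R tumors, and of -0.23, -0.33 and -0.51 over the 11 NR tumors. Ifng had r of 0.90 with Cxcl9, 0.81 with Cxcl10, 0.77 with Cxcl11 and 0.59 with Cxcr3, and within groups 0.69, 0.73, 0.44 and 0.39. These tumors share lines and antibody, and the low counts of Cxcr3 carry counting error.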

How the data were processed

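The authors built poly(A) libraries, sequenced paired ends, aligned reads with Bowtie (1.2.3) to founder-strain transcriptomes on GRCm38 and deposited expected counts per gene, which are unscaled for depth and split reads shared between genes or haplotypes. Of the values 16.95% were not whole, and rounding changed no total by more than 66. GENCODE vM21 named 26681 of 26869 identifiers, and the 188 unnamed held 0.0993% of counts. Sequences are RefSeq.

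Groups came from the labels, and the response class of a line from the study's text. DESeq2 1.42.0 (R 4.3.3, default options, genes with at least 5 summed counts) gave the tests, with antibody (class) or line (antibody) as a term, Benjamini-Hochberg adjusted over all genes. Class tests treated tumors of a line as independent. Line sums were made per line and antibody, so over all tumors they did not take the line alone as the unit. Ratios had 0.5 added to each count and used exact permutation tests, of class over tumors or of antibody within lines. Alternatives were edgeR 4.0.16, limma 3.58.1 (voom, line as a random effect), TMM scaling, no count filter, deep libraries, tumors without Glycam1, line sums, a replicate block, a pseudocount of 5, and left-out tumors. Scripts were tested on simulated data. Named genes were the 4 members, genes of lists for the pathway and its cells that were called for class or antibody, and the 5 genes most like each member. Some genes under this rule are counted but not reported here by name. Ifngr1, Dpp4 and Ackr3 were singled out after their values were seen. Members and lists were chosen with earlier results of these data known. Replicate pairs differed beyond sampling noise (chi-square per degree of freedom 9.16 to 122.98, 11 pairs). Nothing says that replicates of a line shared anything but the line. The p-values measure the spread between these tumors, and those of class tests over tumors do not measure the spread between lines.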

Additional observations from a re-analysis of the deposited data

Results flagged for a closer look

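Of 16 sets of 5 or 6 tumors (each member by class and antibody) that were searched for a tumor far from the rest, 1 stood out, and chance flags about 1 set in 20. Cxcl11 in CC036F1 isotype replicate 2 was at 139.66 normalized counts, against 7.93 to 52.8 in the other 5 NR isotype tumors. That tumor also had the highest Cxcl10 (6325) and the lowest Cxcr3 (5.30) of the NR isotype tumors, while its Cxcl9 (2693) lay within their range.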

How the results depend on the processing

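Higher Cxcl9, Cxcl11 and Cxcr3 in R over all tumors, and higher Cxcl9 in R among aPD1 tumors, passed under every alternative run. The other calls of members did not. Over all tumors no run had the line alone as its unit. The sums there were per line and antibody, and limma took a correlation within lines of only 0.015. TMM scaling moved 1 count of calls and nothing else, and no filter on low counts and a pseudocount of 5 moved nothing. The causes of the changes below were not tested, beyond fewer tumors in some settings. The lines left out were chosen after seeing the data.

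Counts of called genes for R against NR over all tumors were 1668 in deep libraries and 1622 in limma. For isotype tumors they were 30 in edgeR, 44 in deep libraries, 402 without Glycam1 tumors, 315 with counts summed per line and 3 in limma. For aPD1 tumors they were 560 in edgeR and 199 in limma. For aPD1 in R lines edgeR had 0 (2621 at an unadjusted p under 0.05). For aPD1 in NR lines they were 5 in edgeR, 7 with TMM, 44 in deep libraries and 101 without Glycam1 tumors. For the difference of the aPD1 effect they were 0 in edgeR (1932 at an unadjusted p under 0.05), 50 in deep libraries and 24 without Glycam1 tumors. Among R lines edgeR had 87, and among NR lines 902 were called without Glycam1 tumors.

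Replicate numbers did not pair the tumors: correlations of same-numbered deviations had a median of 0.017 (-0.33 to 0.2 over 55 pairs of groups). With the replicate block the Cxcr3 call in aPD1 tumors was lost (1.34, adjusted p = 0.0627), no other call of a member changed, and called genes were 52 for aPD1 in NR lines and 120 for the difference of the aPD1 effect.

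In isotype tumors the Cxcl9 call was lost in edgeR (1.297), deep libraries (1.01), without Glycam1 tumors (1.36), with line sums (1.12) and in limma (1.42), and the Cxcr3 call likewise (1.26, 1.24, 1.16, 1.21 and 1.27). Cxcl10 changed sign there in deep libraries (-0.026). In aPD1 tumors Cxcl10 passed with line sums (0.66, adjusted p = 0.00933), Cxcl11 was lost in limma (2.01), and Cxcr3 was lost in edgeR (1.33), deep libraries (1.48), line sums (1.36) and limma (1.39). With aPD1 in R lines edgeR lost Cxcl9 (0.93), Cxcl10 (0.66) and Cxcl11 (0.93), and Cxcl9 was lost without Glycam1 tumors (0.897, adjusted p = 0.0549). In NR lines Cxcl11 changed sign in deep libraries (-0.71). The difference of the aPD1 effect changed sign for Cxcl9 without Glycam1 tumors (-0.22) and for Cxcr3 in deep libraries (0.039) and without Glycam1 tumors (0.072). Among lines, edgeR lost Cxcl11 in R (1.76), and deep libraries gained Cxcl10 (0.93) and Cxcl11 (1.797) in NR.

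The Cxcl9 to Cxcl10 ratio lost its call in deep libraries (1.401 isotype, 1.46 aPD1), without Glycam1 tumors (1.27, 1.19) and over line means (1.26, 1.47), as did Cxcl9 to Adgre1 (1.16, 1.33; 1.36, 0.75; 1.34, 1.48). For the Cxcl9 to Cxcl10 ratio with aPD1 the classes stayed apart in each of these settings, and fewer units raised the smallest p possible. Cxcr3 to Cd3e changed sign in deep libraries with aPD1 in R lines (0.28) and in NR lines (0.055).

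Leaving out 1 line gave 1686 to 2853 called genes over all tumors, 197 to 1588 in isotype and 793 to 1366 in aPD1 tumors. Cxcl10 ran from 0.28 to 0.59 over all tumors and passed without CC036F1, and from 0.43 to 0.89 in aPD1 tumors, passing without CC001F1 or CC036F1. Cxcl9 in isotype tumors ran from 0.957 to 1.67 and held only without CC080F1. Cxcl11 there ran from 0.947 to 2.47 and passed without CC036F1. Cxcr3 ran from 1.05 to 1.48 in isotype tumors, holding only without CC080F1, and from 1.02 to 1.61 in aPD1 tumors, holding only without CC001F1 or CC080F1.

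Leaving out 1 tumor gave 402 to 1838 called genes in isotype tumors, 928 to 1577 in aPD1 tumors, 327 to 1386 with aPD1 in R lines, 2 to 242 in NR lines, 4 to 305 for the difference of the aPD1 effect and 165 to 330 among R lines. Cxcl10 ran from 0.36 to 0.496 over all tumors and from 0.46 to 0.77 in aPD1 tumors. In isotype tumors Cxcl9 ran from 1.12 to 1.699, Cxcl11 from 1.34 to 2.45 and Cxcr3 from 1.03 to 1.39. Cxcr3 in aPD1 tumors ran from 1.01 to 1.61. With aPD1 in R lines Cxcl9 ran from 0.81 to 1.13, Cxcl10 from 0.56 to 0.83 and Cxcl11 from 0.77 to 1.13. Cxcl11 in NR lines ran from -0.026, without CC079F1 aPD1 replicate 2, to 0.81. For the difference of the aPD1 effect Cxcl9 ran from -0.041, without CC080F1 aPD1 replicate 1, to 0.74, and Cxcr3 from -0.39 to 0.19, above 0 in 8 of 22 fits. Among lines Cxcl10 ran from 0.16 to 0.53 in R and 0.39 to 0.71 in NR, and Cxcl11 from 0.80 to 2.46 in NR. The Cxcl9 to Cxcl10 ratio ran from 1.05 to 1.48 in isotype tumors, from 0.201 to 0.34 with aPD1 in R lines (passing without CC001F1 aPD1 replicate 2, adjusted p = 0.0278) and from -0.21 to 0.46 in NR lines. Cxcl9 to Adgre1 ran from 1.04 to 1.58 in isotype tumors, lost without CC001F1 or CC002F1 replicate 1 or 2 or CC075F1 replicate 1, and from 1.09 to 1.64 in aPD1 tumors, lost without either tumor of CC002F1 or CC075F1. Cxcr3 to Cd3e in R lines ran from -0.34 to 0.24. Depth limits Cxcl11 and Cxcr3 most, with 4 and 5 reads in their lowest libraries.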
